A study of Mus musculus with 72 samples.

Results

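The 8 genes Ppara, Cpt1a, Cpt2, Acadm, Ehhadh, Cyp4a10, Cyp4a14 and Pdk4 were followed through nuclear RNA of mouse liver in cancer cachexia. They were chosen by symbol, as named genes of the PPAR alpha, fatty acid oxidation and ketogenesis programme, and are 8 of the 20105 genes in the count table. All 8 passed the filter on low counts in both kinds of library. RNA was sequenced from 36 mice, each giving 1 library from hepatocyte nuclei captured on beads and 1 from all liver nuclei (72 libraries, 18 groups of 4 animals). All mice, controls included, carried CAG-Sun1/sfGFP and Albumin-Cre, with which hepatocyte nuclei acquire a fluorescent membrane tag, and all livers were taken at zeitgeber time 9 h. BALB/c mice received C26 tumour cells, which bring on cachexia (wasting of muscle and fat), NC26 tumour cells, which leave weight stable, or PBS. C57BL/6N mice received 8025 cells, which induce cachexia, MC38 cells, which leave weight stable, or PBS. PBS animals were separate for the 4 cohorts. The C26 and 8025 cachexia animals were taken after losing over 10% of body weight, and a further C26 group was taken in pre-cachexia. Age and sex are not in the labels, and each tumour model rests on a single cell line.

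PPAR alpha is a nuclear receptor that binds fatty acids and pairs with the retinoid X receptor on DNA. In hepatocytes it turns on genes for fatty acid uptake, oxidation in mitochondria and peroxisomes, omega-hydroxylation and ketone body formation, above all in fasting. Ketone bodies made by the liver then feed other tissues while glucose is short.

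The receptor gene Ppara lies on the plus strand of mm10 at chr15:85735564-85806851. Cpt1a (chr19:3323301-3385733, plus strand) encodes the outer-membrane carnitine palmitoyltransferase that commits long-chain fatty acids to mitochondrial import. Cpt2 (chr4:107903982-107923589, minus strand) encodes the inner-membrane transferase that hands them back to coenzyme A. Acadm (chr3:153922353-153944643, minus strand) encodes the medium-chain acyl-CoA dehydrogenase of mitochondrial beta-oxidation, and Ehhadh (chr16:21761285-21787834, minus strand) the bifunctional enzyme of peroxisomal beta-oxidation. Cyp4a10 (chr4:115518287-115533649, plus strand) and Cyp4a14 (chr4:115486200-115496141, minus strand) encode fatty acid omega-hydroxylases and are neighbours. Pdk4 (chr6:5483351-5496278, minus strand) encodes the kinase that switches off pyruvate dehydrogenase and so spares glucose. Counts cover the whole span of each gene, exons and introns, so they describe nuclear RNA that includes unspliced transcripts.

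Promoter sequences are shown for Pdk4, the member called in both kinds of library of both cachexia models, and for Acadm, the member whose promoter held the closest match to the PPAR alpha element. Both are the 250 bases before the start site from RefSeq (GRCm38.p6, minus strand), at chr6:5496279-5496528 for Pdk4 and chr3:153944644-153944893 for Acadm, written 5′ to 3′, and capitals mark the match.
Pdk4: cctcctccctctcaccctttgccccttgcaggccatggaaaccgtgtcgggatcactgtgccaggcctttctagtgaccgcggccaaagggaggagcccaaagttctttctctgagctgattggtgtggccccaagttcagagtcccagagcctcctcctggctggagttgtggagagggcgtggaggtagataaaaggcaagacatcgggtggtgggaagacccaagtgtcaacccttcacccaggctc
Acadm: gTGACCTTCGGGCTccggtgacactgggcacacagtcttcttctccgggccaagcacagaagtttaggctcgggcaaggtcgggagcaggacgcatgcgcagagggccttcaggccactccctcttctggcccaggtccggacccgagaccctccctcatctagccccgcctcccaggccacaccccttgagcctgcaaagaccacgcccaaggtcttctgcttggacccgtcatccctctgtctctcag

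Of the 8 genes, 6 had a promoter entry, and both strands of these windows were searched. The window of Ppara starts from another transcript start than the counted one and overlaps the counted gene. The direct repeat AGGTCANAGGTCA, the textbook form of the PPAR alpha element, had no match with up to 2 mismatches in any of the 6, and 3.24% of 32851 promoters held one. With up to 3 mismatches, a limit chosen after seeing the first result, Acadm alone of the 6 held a match, at bases -249 to -237 on the opposite strand (AGCCCGAAGGTCA), and 21.3% of promoters held one. The glucocorticoid response element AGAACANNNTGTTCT with up to 2 mismatches (1.56% of promoters) and the E-box CACGTG (6.02%) had no match in the 6 windows. These letters say only what lies in this window.

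Total counts per library were 8.49 to 56.4 M in hepatocyte nuclei and 12.2 to 30.3 M in whole liver nuclei. Across hepatocyte libraries Ppara had 15335 to 119716 counts, whereas Pdk4 had 5 to 880, Cyp4a10 had 2 to 753 and Cyp4a14 had 0 to 436, so the last 3 are measured least precisely. Part of the Cyp4a10 signal is uncertain as to the gene copy, because 29.8% of the 50-base stretches of its transcripts also occur in another Cyp4 gene, against 0% for Cyp4a14. The counts also cover introns, for which such sharing was not measured in either gene. The summed level of 8 hepatocyte markers, in CPM (counts relative to the scaled library size), shifted between groups of hepatocyte libraries. It was 11622 to 14386 in C26 PBS, 6831 to 8365 in C26 pre-cachexia and 12607 to 24660 in C26 cachexia animals, and 11178 to 11977 in 8025 PBS and 7779 to 12046 in 8025 cachexia animals, with no marker at 0. Markers of other cell types also differed in level between these libraries. The sum of 10 macrophage markers was 49.3 to 78.1 CPM in C26 PBS, 87.8 to 108.8 in pre-cachexia and 87.7 to 128 in C26 cachexia animals, and 50.5 to 60.9 in 8025 PBS and 147 to 184 in 8025 cachexia animals. The sum of 10 endothelial markers was 180 to 313 in C26 PBS and 282 to 405 in C26 cachexia animals, and 121 to 192 in 8025 PBS and 193 to 289 in 8025 cachexia animals. None of these 20 markers was at 0 in these groups. The sum of 7 neutrophil markers was 0.501 to 1.49 in C26 PBS, where 4 of the 7 were at 0, and 1.32 to 2.68 in C26 cachexia animals, and 0.590 to 1.21 in 8025 PBS, where 3 were at 0, and 6.64 to 9.99 in 8025 cachexia animals. The cachexia and PBS ranges overlapped for endothelial and neutrophil markers in C26 mice, and did not overlap for macrophage markers in either model. Not every cell type rose. The sum of 10 stellate markers was 90.6 to 129 in C26 PBS and 101 to 127 in C26 cachexia animals. In 8025 mice it fell, from 87.4 to 114 in PBS to 62.5 to 84.7 in cachexia animals. For 10 lymphocyte and 8 cholangiocyte markers, the PBS and cachexia ranges of the sums overlapped in both models. The part of these shifts in the results that follow was not tested.

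In hepatocyte nuclei of the 16 PBS animals, Ppara was the most abundant member and Pdk4 and Cyp4a14 the least. Per kilobase of counted length, Ppara stood at 26.99 ± 6.28 CPM (SD, n = 16) and Cpt1a at 10.1 ± 2.52. Acadm (4.51), Cpt2 (2.06) and Ehhadh (1.39) formed a middle range. Cyp4a10 (0.222), Cyp4a14 (0.0838) and Pdk4 (0.0832) were lowest, and the last 2 lie within each other's spread. The plot of all animals by group shows these levels on separate scales.

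**Figure D1:**
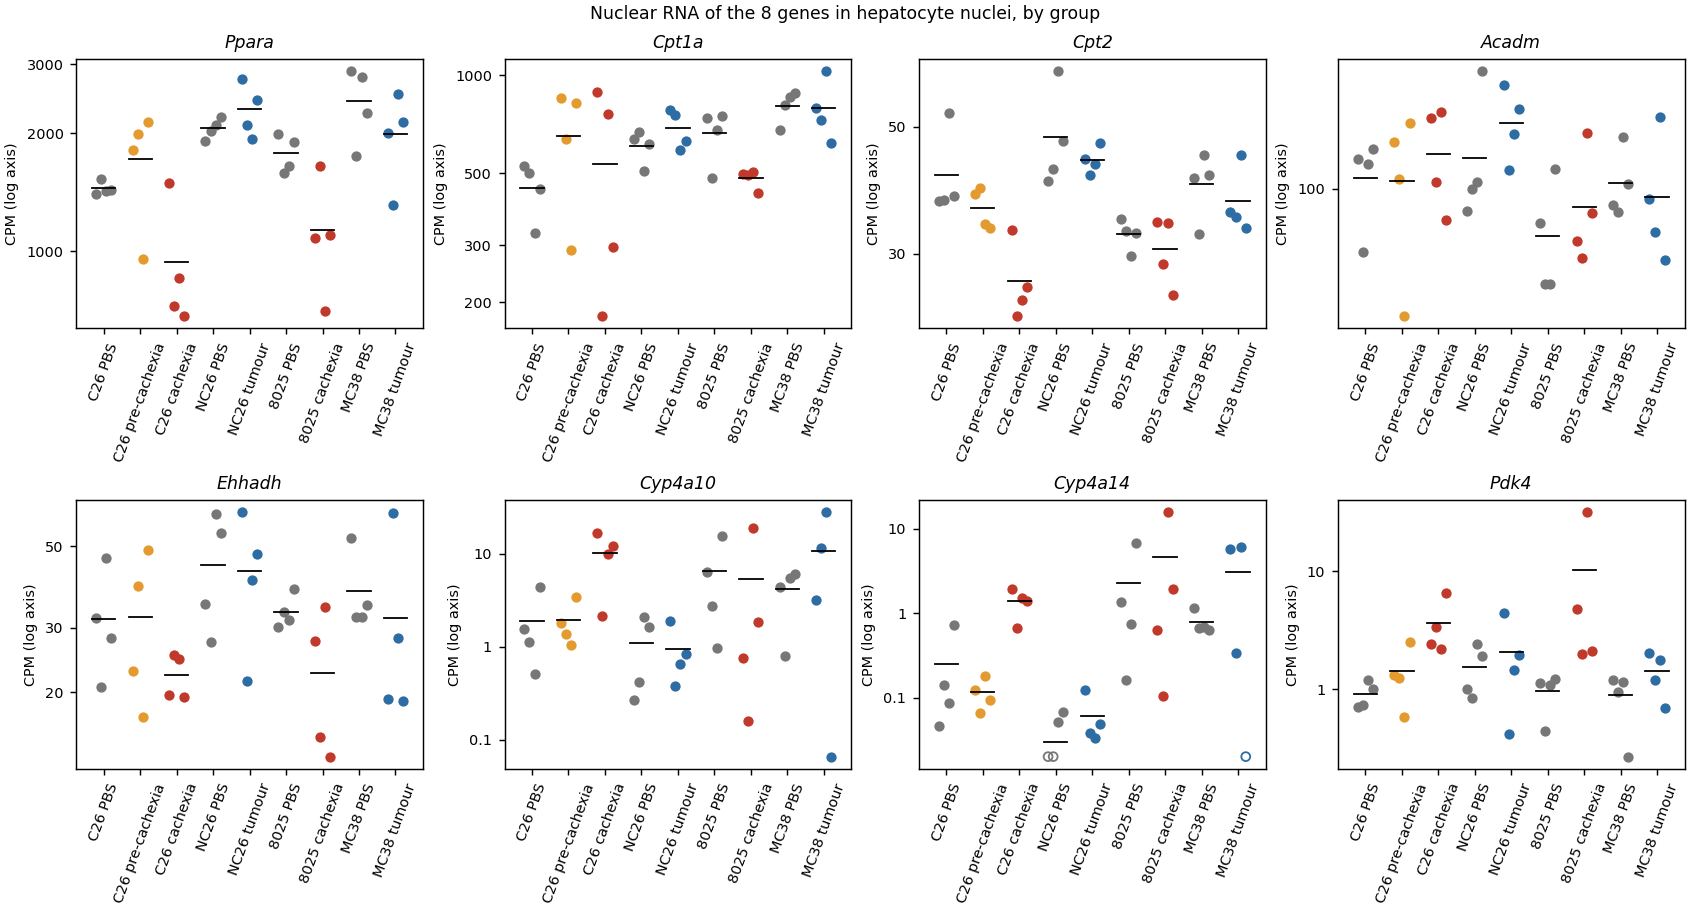
Level of each of the 8 genes in hepatocyte nuclei in CPM (log axes), 1 point per animal and 4 animals per group, with black bars at the group means; grey is PBS, orange pre-cachexia, red cachexia and blue weight-stable tumour. Open circles at the bottom of the Cyp4a14 panel are libraries with 0 counts. Pdk4 in 8025 cachexia animals runs from 2.0004 to 32.04 CPM, with 1 animal far above the other 3.

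The receptor gene Ppara fell in cachexia in whole liver nuclei of both models, and in hepatocyte nuclei of the 8025 model. In hepatocyte nuclei of 8025 mice, Ppara was at 1990, 1579, 1651 and 1896 CPM in PBS animals and at 1080, 1645, 705 and 1099 CPM in cachexia animals. Cachexia animal 2 lay within the PBS range and the other 3 below it. The level was 1.57-fold lower in cachexia (log2 fold change -0.65 ± 0.25 SE, adjusted p = 0.0443, edgeR quasi-likelihood test). In whole liver nuclei of the same animals the groups did not overlap, with 1347 to 1834 CPM in PBS and 531 to 1265 CPM in cachexia animals, a 1.75-fold fall (log2 -0.81 ± 0.24, adjusted p = 0.00747). The hepatocyte call was lost with DESeq2-type size factors (adjusted p = 0.0577), with no filter (0.0509), without 5 genes of rRNA-like reads (0.0542), with only the libraries compared (0.0784) and without any of 8025 PBS animals 1 to 4 or cachexia animals 1, 3 and 4 (log2 -0.49 to -0.71, adjusted p 0.0512 to 0.168). The whole liver call was lost without cachexia animal 3 (log2 -0.60, adjusted p = 0.0529).

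In C26 mice, Ppara stood at 1401, 1524, 1425 and 1435 CPM in hepatocyte nuclei of PBS animals, at 1810, 1987, 955 and 2129 CPM in pre-cachexia and at 1489, 726, 852 and 683 CPM in cachexia. The PBS animals lay close together, pre-cachexia animal 3 lay below them, and cachexia animal 1 remained among them. Against PBS the difference in hepatocyte nuclei did not pass the test (log2 -0.63 ± 0.25, adjusted p = 0.0644), but passed without cachexia animal 1 (-0.96, adjusted p = 0.00628) and with DESeq2 (adjusted p = 0.0451). Ppara fell 1.59-fold in whole liver nuclei (log2 -0.67 ± 0.24, adjusted p = 0.0382). That call was lost without any of PBS animals 1 to 4 or cachexia animals 2, 3 and 4 (log2 -0.57 to -0.70, adjusted p 0.0529 to 0.12). Against pre-cachexia, Ppara was 1.84-fold lower in hepatocyte nuclei (adjusted p = 0.0217) and 1.82-fold lower in whole liver nuclei (adjusted p = 0.0151). With only these groups in the fit neither passed (adjusted p = 0.155 and 0.0944). Hepatocyte markers differed between the same groups, with sums in hepatocyte libraries of 6831 to 8365 CPM in pre-cachexia and 12607 to 24660 CPM in cachexia, and their part in this and the other comparisons with pre-cachexia was not tested. Both were also lost without pre-cachexia animal 4 or cachexia animals 2, 3 or 4 (adjusted p 0.0574 to 0.102), and the hepatocyte call without pre-cachexia animal 2 (0.0795).

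Of the carnitine palmitoyltransferase genes, Cpt2 fell in C26 cachexia and Cpt1a did not pass the test in either model. In hepatocyte nuclei Cpt2 was at 37.2, 37.2, 53.0 and 37.8 CPM in PBS animals and at 33.0, 23.4, 24.9 and 26.3 CPM in cachexia animals. No cachexia animal reached the PBS range. Cpt2 fell 1.54-fold (log2 -0.62 ± 0.14, adjusted p = 0.00166) and stayed called without each of the 8 animals in turn (log2 -0.50 to -0.75, adjusted p 0.00041 to 0.0122). Cpt2 fell 1.35-fold in whole liver nuclei (log2 -0.44 ± 0.12, adjusted p = 0.00882, and 0.054 without PBS animal 3). Cpt2 was also lower than in pre-cachexia in hepatocyte nuclei (log2 -0.43 ± 0.14, adjusted p = 0.0498). This call was lost with DESeq2-type size factors (0.0547), with no filter (0.0659), with only the libraries compared (0.104) and without pre-cachexia animals 1, 2 or 4 or cachexia animals 2, 3 or 4 (0.0565 to 0.159). In 8025 cachexia Cpt2 did not pass the test (log2 -0.09, 95% interval -0.37 to 0.20, adjusted p = 0.676).

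Cpt1a, the import step under malonyl-CoA control, spread widely among cachectic C26 animals. Hepatocyte values were 527, 499, 327 and 447 CPM in PBS and 892, 182, 758 and 296 CPM in cachexia. Animals 1 and 3 lay above every PBS animal and animals 2 and 4 below every one. The mean difference was small against that spread (log2 0.24 ± 0.31, adjusted p = 0.624). In 8025 cachexia the 4 animals lay at 434 to 505 CPM, against 483 to 751 CPM in PBS (log2 -0.46 ± 0.31, adjusted p = 0.282).

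Acadm and Ehhadh, the mitochondrial and peroxisomal beta-oxidation enzymes, passed the main test in no comparison of tumour with PBS animals. Acadm differed by log2 0.13 (95% interval -0.29 to 0.54) in C26 and 0.15 (-0.26 to 0.56) in 8025 cachexia, in hepatocyte nuclei. Ehhadh was at 31.95, 20.6, 46.4 and 28.1 CPM in C26 PBS and at 19.7, 25.3, 24.6 and 19.5 CPM in C26 cachexia animals. Its difference was log2 -0.51 ± 0.36 (adjusted p = 0.333), and the groups overlapped. In whole liver nuclei it was -0.63 ± 0.31 (adjusted p = 0.145, and 0.023 with only the libraries compared). In 8025 cachexia it was -0.55 ± 0.37 in hepatocyte nuclei (adjusted p = 0.27) and -0.73 ± 0.31 in whole liver nuclei (adjusted p = 0.0604), where the groups did not overlap. The latter became -0.93 (adjusted p = 0.034) without cachexia animal 3, and passed with only the libraries compared (0.0465).

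Of the omega-hydroxylase genes, Cyp4a14 rose in C26 cachexia in whole liver nuclei. Cyp4a14 was at 0.0466, 0.14, 0.0857 and 0.733 CPM in hepatocyte nuclei of C26 PBS animals, at 0.124, 0.0664, 0.18 and 0.0944 CPM in pre-cachexia and at 1.96, 0.677, 1.51 and 1.40 CPM in cachexia. Cachexia animal 2 lay below PBS animal 4, and all 4 cachexia animals lay above every pre-cachexia animal. In hepatocyte nuclei the difference from PBS did not pass (log2 2.401 ± 1.17, adjusted p = 0.141), nor did that from pre-cachexia (log2 3.65 ± 1.29, adjusted p = 0.0738, and 0.0304 with DESeq2). In whole liver nuclei of the 8 BALB/c PBS animals Cyp4a14 was at 0 to 0.411 CPM, so a fold change against PBS there is a ratio to a level near 0. Cyp4a14 rose 11.1-fold against PBS in whole liver nuclei (log2 3.47 ± 1.15, adjusted p = 0.0274) and 28.6-fold against pre-cachexia (log2 4.84 ± 1.33, adjusted p = 0.0156). The former was lost without PBS animals 1, 2 or 3 or cachexia animal 3 (adjusted p 0.0623 to 0.0741), and the latter without pre-cachexia animal 2 (0.0611).

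Cyp4a10 was at 1.54, 1.12, 0.514 and 4.36 CPM in C26 PBS and 16.9, 2.16, 9.83 and 12.04 CPM in C26 cachexia animals, in hepatocyte nuclei. Its difference of log2 2.43 ± 1.06 did not pass (adjusted p = 0.0966). Cachexia animal 2 lay within the PBS range and the other 3 above it. With only the 2 groups in the fit both genes passed in hepatocyte nuclei against PBS (Cyp4a10 adjusted p = 0.0306, Cyp4a14 0.0292) and against pre-cachexia (0.0473 and 0.00652). Cyp4a10 passed that way in whole liver nuclei too (0.0346), and without PBS animal 4 (log2 3.83, adjusted p = 0.0263).

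In the 8025 model neither omega-hydroxylase gene passed the test, and 1 cachexia animal stood far above the other 3. Hepatocyte Cyp4a10 was at 6.43, 2.73, 0.969 and 15.6 CPM in PBS and at 0.751, 0.158, 18.8 and 1.87 CPM in cachexia animals. Cachexia animal 3 was the highest of all 8, animals 1 and 2 lay below the PBS range and animal 4 within it. Cyp4a14 had the same highest animal, at 15.9 CPM against 0.105 to 1.92 CPM in the other 3. The differences did not pass (Cyp4a10 log2 -0.26 ± 0.996, adjusted p = 0.874; Cyp4a14 1.06 ± 0.97, adjusted p = 0.443). Without animal 3, Cyp4a10 in whole liver nuclei went from log2 -0.50 to -2.88 (adjusted p = 0.0478), and hepatocyte Cyp4a14 went from 1.06 to -1.34 without passing (adjusted p = 0.358).

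Pdk4 was the only member called higher in both cachexia models. In C26 hepatocyte nuclei it was at 0.699, 0.736, 1.20 and 1.003 CPM in PBS animals and at 2.397, 3.38, 2.20 and 6.61 CPM in cachexia animals. Every cachexia animal lay above every PBS animal. Pdk4 rose 4.02-fold (log2 2.01 ± 0.70, adjusted p = 0.0362) and in whole liver nuclei 2.58-fold (log2 1.37 ± 0.49, adjusted p = 0.0431). The hepatocyte call was lost without any of PBS animals 1 to 4 (adjusted p 0.0573 to 0.0867) or cachexia animal 4 (log2 1.52, 0.136). The whole liver call was lost without PBS animals 1 to 4 or cachexia animals 2, 3 and 4 (log2 1.17 to 1.48, adjusted p 0.054 to 0.122) and with no filter (0.0524).

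In 8025 hepatocyte nuclei Pdk4 was at 1.12, 0.442, 1.08 and 1.21 CPM in PBS animals and at 4.84, 2.0004, 32.04 and 2.12 CPM in cachexia animals, again without overlap. Animal 3 exceeded the next by several fold. Pdk4 rose 10.8-fold (log2 3.44 ± 0.73, adjusted p = 0.000645) and in whole liver nuclei 5.54-fold (log2 2.47 ± 0.51, adjusted p = 0.000302). Without animal 3 it remained called, at log2 1.66 (adjusted p = 0.0378) in hepatocyte and 0.94 (adjusted p = 0.0337) in whole liver nuclei. The macrophage markers above rose in the same hepatocyte libraries (9 of 10 called in 8025 and 7 of 10 in C26 cachexia), and their part in Pdk4 was not tested. In pre-cachexia Pdk4 did not pass (log2 0.65 ± 0.71, adjusted p = 0.625).

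By count, 2 of the 8 members were called in C26 cachexia in hepatocyte nuclei, against 22.2% of all genes tested, and 4 of 8 in whole liver nuclei, against 22.1%. In 8025 cachexia 2 of 8 were called in each fraction, against 29.3% and 36.6% of all genes. Against pre-cachexia, C26 cachexia gave 2 of 8 in hepatocyte (9.09% of all genes) and 2 of 8 in whole liver nuclei (11.6%). C26 pre-cachexia against PBS gave 0 of 8 in each fraction (7.72% and 12.8% of all genes), with no member at an unadjusted p under 0.05. C26 cachexia and pre-cachexia share their PBS animals.

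**Figure D2:**
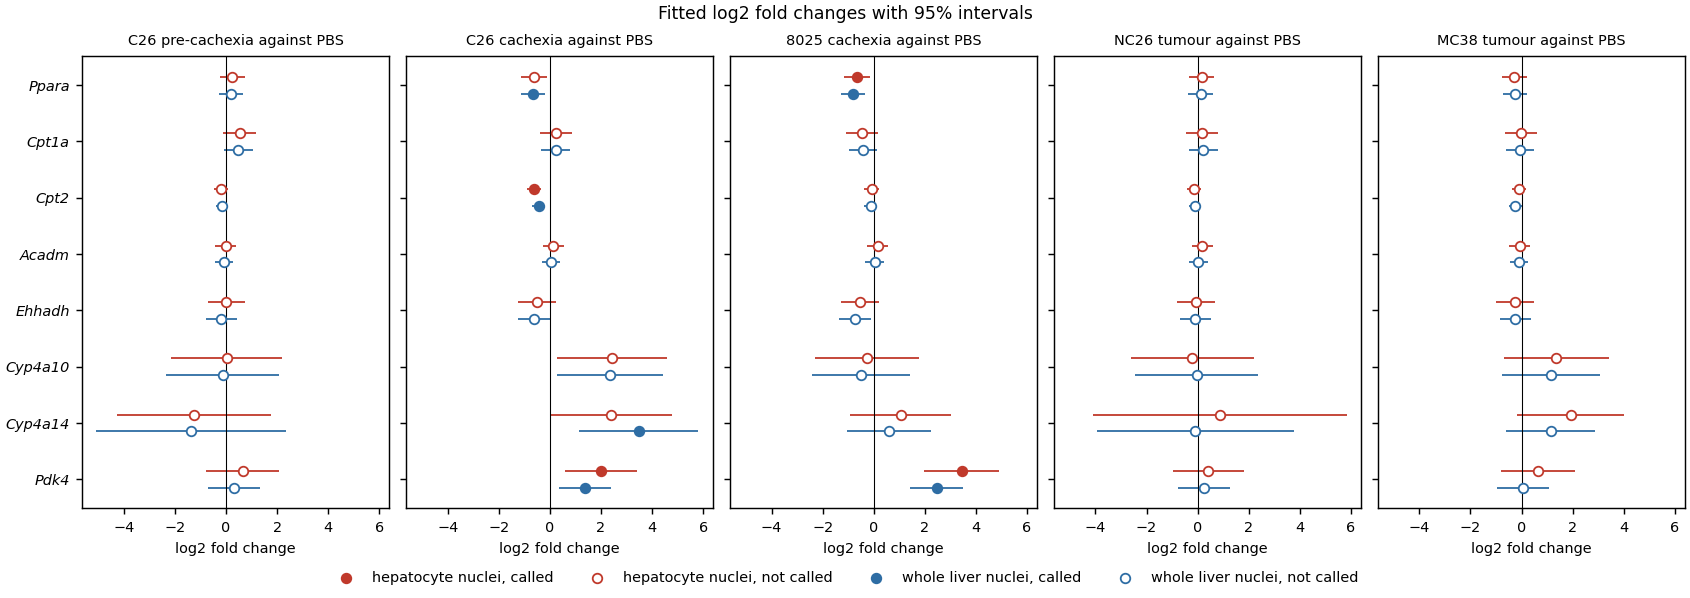
Fitted log2 fold change of each gene (horizontal axis) against the PBS animals of its cohort, with 95% intervals, in hepatocyte (red) and whole liver nuclei (blue), 4 animals per group; filled points passed an adjusted p of 0.05. Pdk4 is filled in both fractions of both cachexia panels, and no point is filled in the pre-cachexia and weight-stable panels.

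Tumours without weight loss gave no call among the 8 genes. With NC26, 0 of 8 passed in hepatocyte (0.324% of all genes) and whole liver nuclei (0.728%), and with MC38, 0 of 8 (0% of all genes in each fraction); edgeR gave no member an unadjusted p under 0.05 in these 4 comparisons, and DESeq2 called none. Pdk4 differed by log2 0.42 (95% interval -0.97 to 1.80) with NC26 and by 0.64 (-0.81 to 2.09) with MC38 in hepatocyte nuclei. MC38 tumour animals diverged in the omega-hydroxylases, with Cyp4a10 at 3.17, 11.7, 28.1 and 0.0662 CPM and Cyp4a14 at 5.78, 0.339, 6.05 and 0 CPM. The animals with the lowest Cyp4a10 and Cyp4a14 were the same one, animal 4.

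Tested directly, the cachexia effect and the weight-stable tumour effect differed for Pdk4 in 1 comparison. In whole liver nuclei the 8025 effect on Pdk4 exceeded the MC38 effect by log2 2.41 ± 0.71 (adjusted p = 0.0227; 1 of 8 members against 13.5% of all genes). Without 8025 cachexia animal 3 the difference was 0.89 (adjusted p = 0.211), and with only the libraries compared 2.4 (0.096). In hepatocyte nuclei it was 2.80 ± 1.01 (adjusted p = 0.0859, and 0.0354 with DESeq2; 0 of 8 members, 7.21% of all genes). C26 against NC26 gave 0 of 8 in each fraction (1.89% and 3.4% of all genes; 2 and 1 members at an unadjusted p under 0.05 in edgeR). Pre-cachexia against NC26 gave 0 of 8 (0% of all genes in each; 0 members at an unadjusted p under 0.05), and DESeq2 called no member in these 4. For Ppara in hepatocyte nuclei the C26 effect minus the NC26 effect was log2 -0.79 (95% interval -1.49 to -0.08, adjusted p = 0.262), so the difference did not pass.

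The 2 cachexia models were also tested against each other, with 0 of 8 members called in hepatocyte (0.957% of all genes) and whole liver nuclei (6.57%); 1 member in each had an unadjusted p under 0.05 in edgeR, and DESeq2 called none. For Cpt2, called in C26 but not in 8025 cachexia, the difference in hepatocyte nuclei was log2 -0.53 (95% interval -0.93 to -0.13, adjusted p = 0.199). For Ppara the models differed by 0.03 (-0.68 to 0.73). In whole liver nuclei, without 8025 cachexia animal 3, Cyp4a10 (log2 5.25, adjusted p = 0.033) and Cyp4a14 (5.24, adjusted p = 0.0172) differed between the models.

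Among PBS animals Cyp4a10 and Cyp4a14 were higher in C57BL/6N than in BALB/c mice. Other omega-oxidation genes went both ways in hepatocyte nuclei. Cyp4a32 (log2 -1.43 ± 0.38) and Cyp4a12a (-1.22 ± 0.35) were lower, while Cyp4a12b (1.82 ± 0.40) was higher. Of the 50-base stretches of Cyp4a10 transcripts, 24.5% also occur in Cyp4a32, and the part of this in the strain difference was not tested. In hepatocyte nuclei Cyp4a14 was higher in C57BL/6N than in BALB/c mice by log2 3.80 ± 1.02 (adjusted p = 0.00344) and Cyp4a10 by 1.86 ± 0.76 (adjusted p = 0.0499), while Cpt2 was lower (log2 -0.31 ± 0.10, adjusted p = 0.0122), 8 animals per strain. These are 3 of 8 members, against 41.2% of all genes. Hepatocyte Cyp4a14 was at 0 to 0.733 CPM in BALB/c PBS animals, so its fold change is a ratio to a level near 0. In C57BL/6N PBS animals it was at 0.161 to 6.79 CPM, with a median of 0.724. In whole liver nuclei Cyp4a14 (log2 4.0045), Cyp4a10 (2.09), Cpt1a (0.55) and Ppara (0.45) were higher, 4 of 8 against 39.6% of all genes. The hepatocyte Cyp4a10 call was lost with DESeq2-type size factors, no filter or without the rRNA-like genes (adjusted p 0.0523 to 0.0543) and without any of C26 PBS animals 1, 2 or 3, NC26 PBS animals 1, 2 or 4, 8025 PBS animals 1 or 4 or MC38 PBS animals 1, 3 or 4 (log2 1.43 to 2.02, adjusted p 0.0544 to 0.143). Without C26 PBS animal 3 the Cpt2 call was lost (log2 -0.23, adjusted p = 0.0562), and in whole liver nuclei single animals ended the calls of Cyp4a10 (C26 PBS 1, NC26 PBS 1, 8025 PBS 4), Cpt1a (C26 PBS 3, NC26 PBS 3, 8025 PBS 3) and Ppara (8025 PBS 1, MC38 PBS 1, MC38 PBS 3), with adjusted p 0.051 to 0.0621. Strain cannot be told apart from the cohorts nested in it, 2 per strain.

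Between the fractions of the 16 PBS livers, Ppara (log2 0.40 ± 0.12, adjusted p = 0.00472), Cpt1a (0.40 ± 0.15, 0.0232) and Cpt2 (0.28 ± 0.07, 0.000291) were higher in hepatocyte than in whole liver nuclei. Pdk4 was lower in hepatocyte nuclei (log2 -0.95 ± 0.32, adjusted p = 0.012). These 4 of 8 members compare with 50.9% of all genes, and in whole liver nuclei fewer cells of a type and less RNA per cell cannot be told apart. With both libraries of an animal paired, Acadm was also higher in hepatocyte nuclei (log2 0.22, adjusted p = 1.47e-10, against 0.0548 unpaired). The size of the cachexia effect did not pass a test of difference between fractions for any member, with 0 of 8 in C26 (0% of all genes) and 0 of 8 in 8025 cachexia (0.0427%), no member at an unadjusted p under 0.05 in edgeR and none called by DESeq2. For Pdk4 the interval of that difference was log2 -1.10 to 2.34 in C26 and -0.77 to 2.74 in 8025 cachexia. These tests and intervals treat the 2 libraries of an animal as unpaired. With the libraries paired, again 0 of 8 members were called in each model.

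The differences between animals of a group were repeated in both of their libraries. As log2 deviations from group means over 36 animals, hepatocyte and whole liver values correlated with Pearson's r from 0.88 (Pdk4) to 0.98 (Acadm) and Spearman's rho from 0.78 to 0.98. The permutation p adjusted over the 8 genes was 1.14e-05 for 7 genes and 2e-05 for Cyp4a14, with 1e-05 the smallest raw p that the permutations can give. Without the 2 farthest animals r was 0.82 to 0.98. Both libraries share the animal and its liver.

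**Figure D3:**
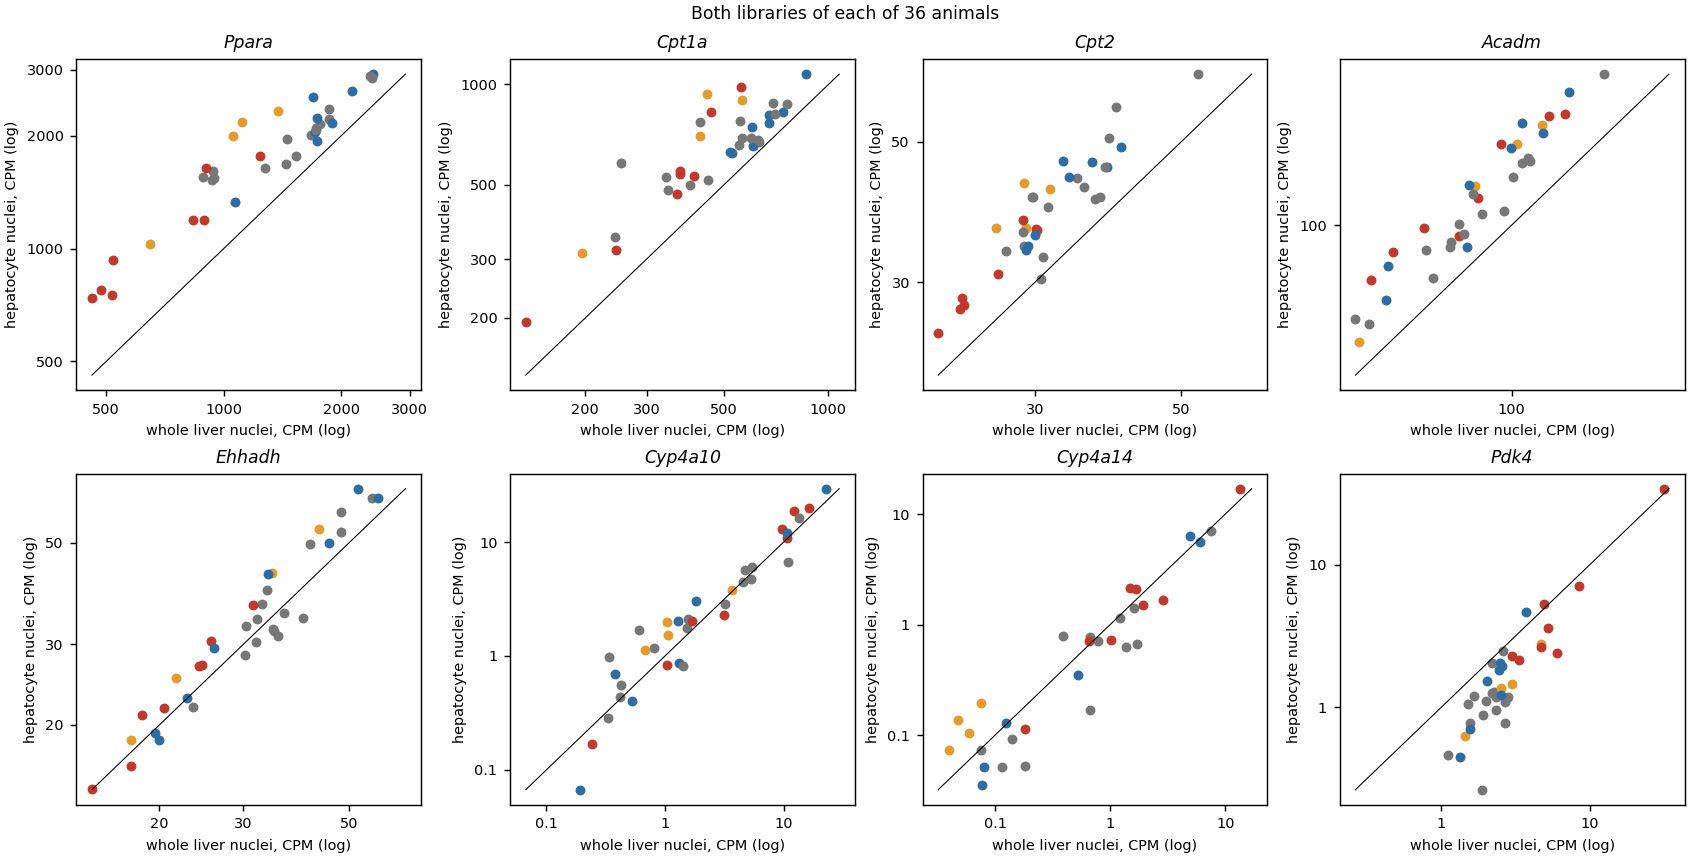
Level in hepatocyte nuclei (vertical) against whole liver nuclei (horizontal) of each of 36 animals, in CPM on log axes with 1 scaling for both fractions; the line marks equal levels, and colours are as in the plot by group. For Cyp4a14, 5 animals with 0 counts in 1 library are not drawn. The 8025 cachexia animal with the highest Pdk4 stands apart in both fractions.

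Within groups, Pdk4, Acadm and the omega-hydroxylase genes varied together. In hepatocyte nuclei 10 of the 28 pairs of members passed a permutation test within groups on Pearson's r, adjusted over the 28. Cyp4a10 and Cyp4a14 had r 0.77 (rho 0.70, adjusted p = 0.00541 and 0.00434), and 0.63 without the 2 farthest animals. Pdk4 correlated with Ehhadh (r 0.62, rho 0.57, adjusted p = 0.00541 and 0.0158), Cyp4a14 (r 0.56, rho 0.52, adjusted p = 0.00784 and 0.0193), Cyp4a10 (r 0.53, rho 0.49, 0.0176 and 0.0299) and Acadm (r 0.50, rho 0.49, 0.0138 and 0.0256). Without the 2 farthest animals these Pdk4 pairs had r 0.53 (Ehhadh), 0.47 (Cyp4a14), 0.41 (Cyp4a10) and 0.42 (Acadm). Acadm also correlated with Cyp4a10 (r 0.64, rho 0.68, 0.00252 and 0.00308). Cyp4a14 and Acadm (r 0.54) and Cpt1a and Acadm (r 0.57) passed too, as did Cpt1a and Cyp4a10 (r 0.34), whose rho did not pass (adjusted p = 0.0682). Ppara correlated with Cpt1a (r 0.57, rho 0.46, adjusted p = 0.0218 and 0.035, and r 0.34 without the 2 farthest animals).

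With Pdk4, Ehhadh, Cyp4a10 and Cyp4a14, Ppara had r of -0.06, -0.02, 0.00 and -0.07 in hepatocyte nuclei (adjusted p 0.887 to 0.996). Of the 28 pairs, 9 passed on r in whole liver nuclei, all of them among the 10 above. Of these, Ppara and Cpt1a (adjusted permutation p = 0.146), Cpt1a and Acadm (0.128) and Cyp4a10 and Cyp4a14 (0.0766) did not pass on rho there. All values of a library share its depth and scaling.

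**Figure D4:**
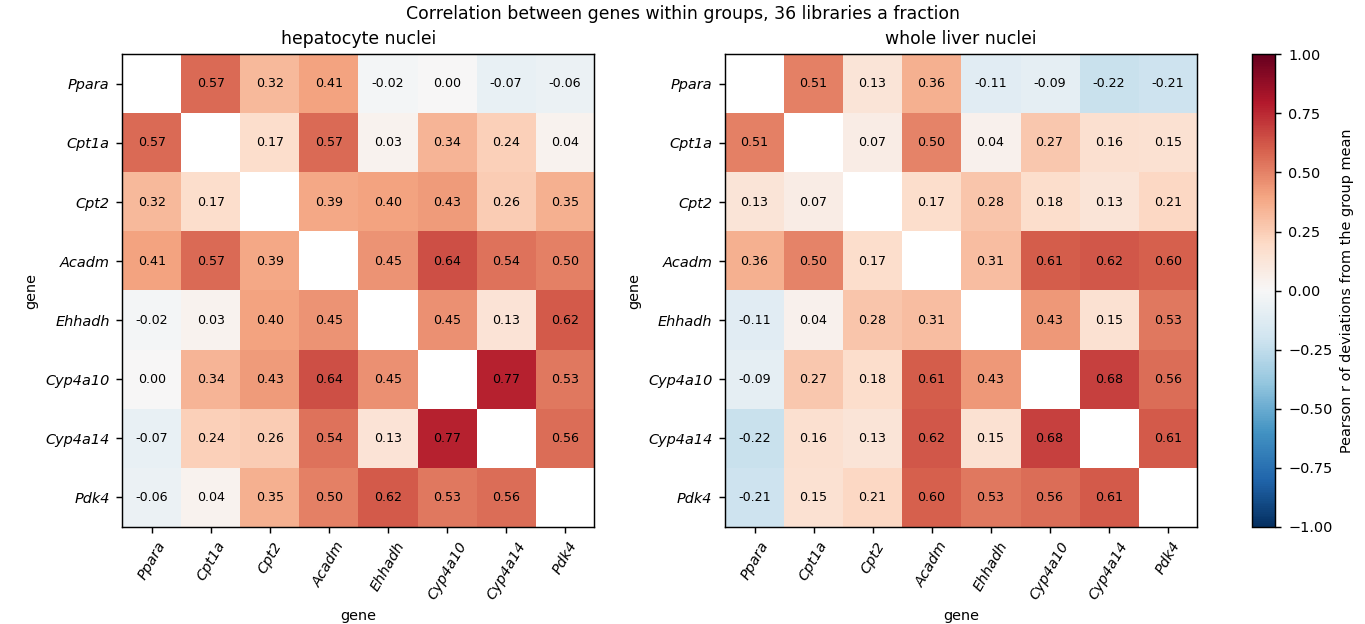
Pearson's r between genes, from log2 deviations of 36 libraries from their group means, in hepatocyte (left) and whole liver nuclei (right); red is positive and blue negative. Pdk4, Cyp4a10, Cyp4a14 and Acadm are red with each other in both panels. Cyp4a10 and Cyp4a14 have r 0.77 in hepatocyte and 0.68 in whole liver nuclei. In hepatocyte nuclei Ehhadh is at 0.13 with Cyp4a14, and the Ppara row is near 0 for Pdk4, Ehhadh and both Cyp4a genes.

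Of 119 genes tested, the 8 members included, on lists of the pathway's roles, 13 were higher and 26 lower in C26 cachexia in hepatocyte nuclei, and 9 higher and 29 lower in 8025 cachexia. Among all genes 12.2% were higher and 10% lower in C26, and 16.2% higher and 13.1% lower in 8025 cachexia. The median log2 fold change of the lists was -0.13 and -0.26, against 0.00 and -0.02 over all genes. In C26 pre-cachexia 4 of 119 were lower and none higher (7 called by DESeq2, 20 at an unadjusted p under 0.05 in edgeR). Among all genes 7.72% were called there in either direction. With NC26 and MC38 none was called, against 0.324% and 0% of all genes (7 and 10 list genes at an unadjusted p under 0.05 in edgeR). DESeq2 called 1 with MC38, and 1 was called with NC26 with only the libraries compared. The lists were drawn up with results of these data known, so their counts are a description.

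Among receptors and cofactors, 3 of 19 were higher and 2 lower in C26 cachexia, where Ppargc1a, a coactivator of PPAR alpha, rose (log2 1.35 ± 0.37), as did the coactivator gene Ncoa2 (0.52 ± 0.11), and Creb3l3, a liver transcription factor that acts with PPAR alpha in fasting, fell (-0.98 ± 0.18). In 8025 cachexia 3 of 19 fell and none rose, with Ppargc1b, a related coactivator, at log2 -1.91 ± 0.26 and Lpin1, a phosphatidate phosphatase and coregulator, at -1.59 ± 0.60. Rxra, the partner receptor, was not called in either (0.31 and -0.09). Of all genes, 22.2% were called in C26 and 29.3% in 8025 cachexia.

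For uptake and activation, 3 of 19 were higher and 3 lower in each model, against 22.2% of all genes called in C26 and 29.3% in 8025 cachexia. The fatty acid carrier Fabp1 fell in both (log2 -2.9985 ± 0.51 and -3.75 ± 0.53), while the fatty acid translocase Cd36 rose in both (2.27 ± 0.40 and 1.60 ± 0.40). In PBS animals Cd36 was 3.07-fold lower in hepatocyte than in whole liver nuclei (adjusted p = 2.03e-12), and the part of the macrophage and endothelial markers that rose in the same libraries was not tested. Acsl1, a long-chain acyl-CoA synthetase, fell in 8025 cachexia (-1.76 ± 0.38). Slc25a20, the carnitine carrier between the 2 palmitoyltransferases, fell in C26 cachexia (-0.62 ± 0.16, adjusted p = 0.0068) and was at -0.38 ± 0.16 in 8025 cachexia (adjusted p = 0.0817).

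Of 17 genes of mitochondrial beta-oxidation, 5 fell and 1 rose in C26 cachexia and 6 fell in 8025 cachexia. Over all genes, 10% fell in C26 and 13.1% in 8025 cachexia. Hadha, of the trifunctional protein, was lower in both (log2 -0.58 ± 0.17 and -0.84 ± 0.17), as was the thiolase gene Acaa2 (-0.69 ± 0.15 and -0.96 ± 0.15). Decr1, the dienoyl-CoA reductase for unsaturated chains, fell in C26 cachexia (-1.19 ± 0.26). Of 22 peroxisomal genes, 7 fell in each model, and 2 and 1 rose. The peroxisomal thiolase gene Acaa1b changed most among them (log2 -4.74 ± 0.66 and -4.24 ± 0.64). The peroxisomal fatty acid transporter Abcd3 fell in C26 cachexia (-1.29 ± 0.29), and Nudt7, a peroxisomal coenzyme A diphosphatase, in 8025 cachexia (-2.89 ± 0.58). Of 12 omega-oxidation genes, 3 fell in C26 cachexia, and 6 fell and 1 rose in 8025 cachexia, where the hydroxylase genes Cyp4a12a and Cyp4a12b were at log2 -6.73 ± 0.68 and -5.37 ± 0.70. In C26 cachexia Cyp4v3, a fatty acid hydroxylase, was at -1.97 ± 0.23, and Aldh3a2, the fatty aldehyde dehydrogenase, at -2.08 ± 0.36.

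Of 10 ketogenesis genes, 1 was higher and 1 lower in C26 cachexia and 2 higher and 1 lower in 8025 cachexia, near the shares called among all genes (22.2% and 29.3%). Bdh1, the hydroxybutyrate dehydrogenase, fell in C26 cachexia (-1.42 ± 0.29), the related Bdh2 fell in 8025 cachexia (-1.71 ± 0.28), and the ketone body exporter Slc16a6 rose in both (0.71 ± 0.22 and 1.35 ± 0.23). Among other genes known to respond to PPAR alpha, Fgf21, a fasting hormone, fell in C26 cachexia (log2 -2.85 ± 0.65) and was at -0.33 ± 0.62 in 8025 cachexia. The lipolysis inhibitor G0s2 (-3.63 ± 0.56) and the thioesterase Acot1 (-3.91 ± 0.80) fell in C26 cachexia, while in 8025 cachexia the monoacylglycerol lipase Mgll fell (-2.08 ± 0.35) and the mitochondrial carrier Ucp2 rose (2.22 ± 0.38). In PBS animals Ucp2 was 5.03-fold lower in hepatocyte than in whole liver nuclei (adjusted p = 3.51e-19), and the part of the macrophage and neutrophil markers that rose with it was not tested. Only 1 of the 7 neutrophil markers passed the filter on low counts in hepatocyte libraries, so their rise is that of a low summed level. Angptl4 (0.35 and 0.23) and Vnn1 (-0.70 and 0.44) were not called. Cpt1b was not analysed here.

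**Figure D5:**
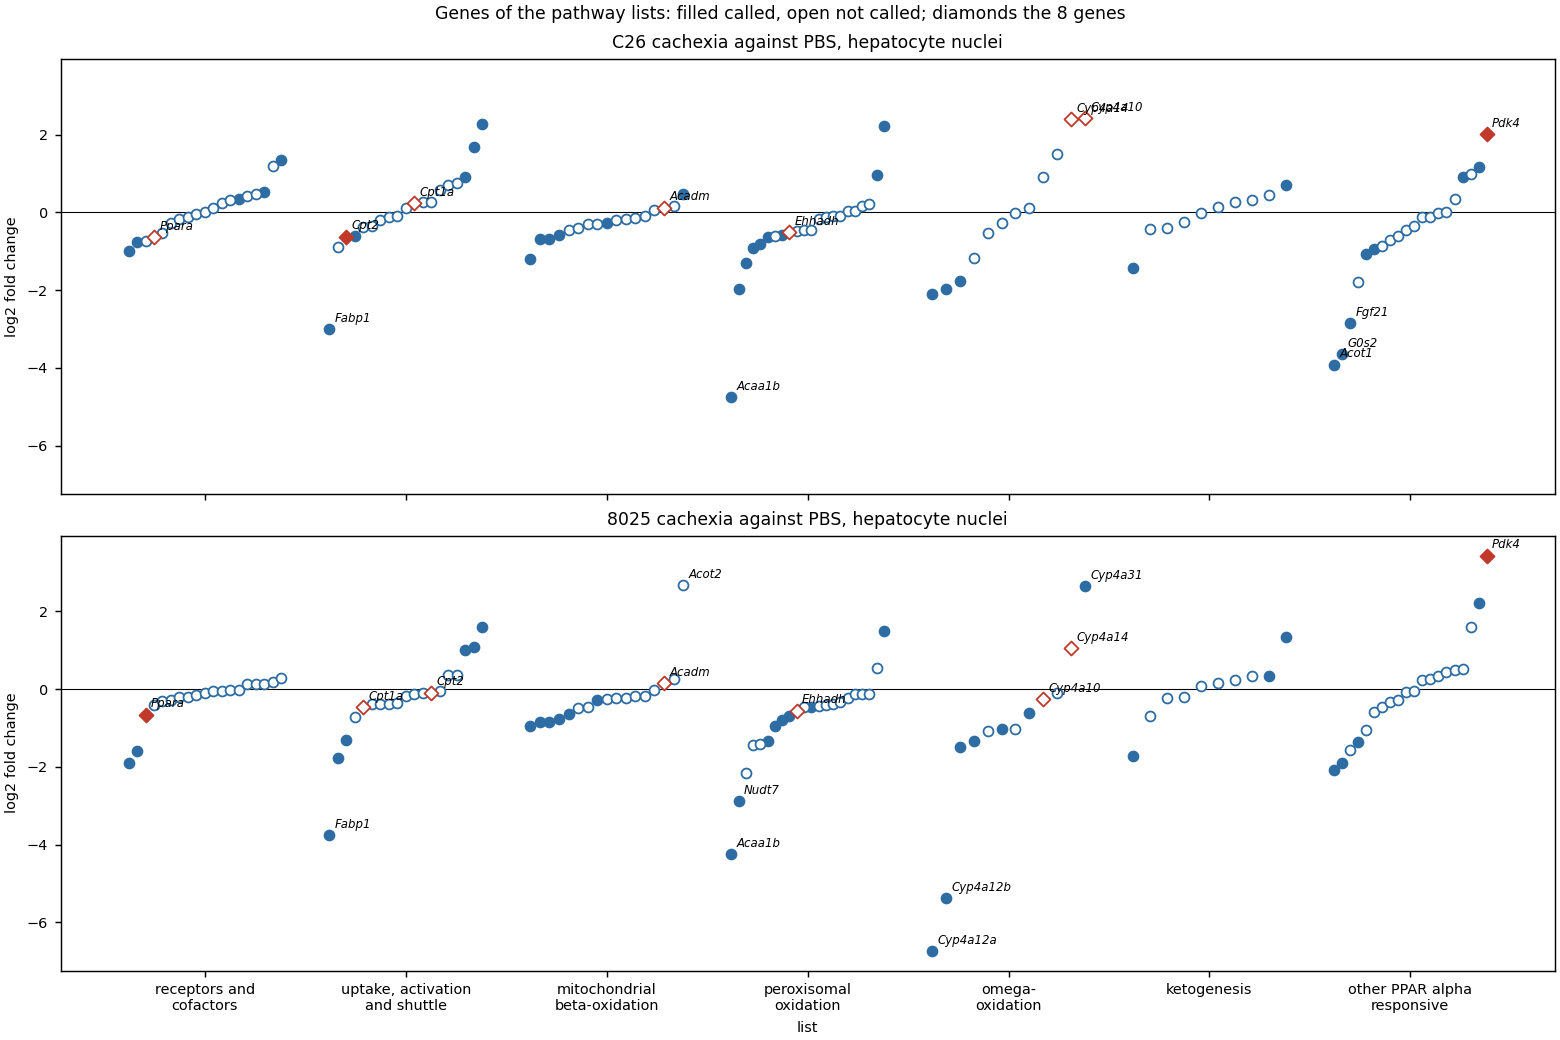
Log2 fold change (vertical axis) of the pathway genes in hepatocyte nuclei of C26 (top) and 8025 cachexia (bottom) against PBS, by role and sorted within a role; filled points passed an adjusted p of 0.05 and red diamonds are the 8 genes. Pdk4 is the highest point of its list in both panels, while Fabp1 and Acaa1b lie at -2.9985 or below.

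Over all 36 hepatocyte libraries, among the 9076 genes that averaged 5 CPM or more, log2 levels, each set against the PBS mean of its cohort, were most like those of Ppara for Bdh1 (Pearson's r 0.83), Sord (0.82) and Ephx2 (0.81). Cpt1a was most like Hykk (0.80), Pnpla7 (0.78) and Arf3 (0.76), and Pdk4 most like 1700024P16Rik (0.78) and Rhoq (0.77). Among these genes Cyp4a14 was most like Naip2 (0.62), Btg1 (0.59) and Cd36 (0.59), while Cyp4a10, which at a mean of 4.76 CPM was below the minimum, had r 0.77 with it. These values describe likeness of level across libraries that share tumour model and strain.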

How the data were processed

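Whole-number counts of 20105 genes in 72 libraries were deposited by the authors as 1 table, counted over whole gene spans with introns, per the file headers. RNA was total nuclear RNA in stranded libraries made without poly-adenylated RNA selection, per the labels' protocols. The submitters' processing notes name mm10, STAR 2.4.2a and DESeq2 1.24.0 without a role, and how strand was used in counting is not given in the sources used here.

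Counts were tested with edgeR 4.0.16 in R 4.3.3 (limma 3.58.1; TMM scaling, filterByExpr by group, quasi-likelihood F test), in a fit of 36 libraries per fraction (13274 and 13738 genes) and a fit of all 72 for the comparison of fractions (14054 genes). P-values were adjusted by Benjamini-Hochberg over all genes tested, and genes under 0.05 were called. SE is the log2 fold change divided by the square root of F, and CPM uses TMM-scaled sizes. The median library held 26.1 M (hepatocyte) and 20.1 M counts (whole liver), and low counts limit the precision of Pdk4, Cyp4a10 and Cyp4a14. On counts simulated for C26 cachexia against PBS over 12987 genes, 59% of genes changed by log2 1 and 100% of those changed by log2 2 were recovered. For the C26 effect against the NC26 effect these shares were 19% and 92%. Every simulated gene was given the same spread between animals, with median errors of log2 0.182 to 0.254. The SE of Pdk4, Cyp4a10 and Cyp4a14 were larger, so these shares do not hold for those genes. Correlations used 100000 permutations within groups. Alternatives were DESeq2 1.42.0, DESeq2-type size factors, no filter, leaving out 5 genes with rRNA-like reads (0.944% to 8.31% of counts), only the libraries compared, the replicate number as a block, and leaving out each animal.

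Samples were grouped by the labels, and the labels tie the pair of libraries to an animal by its identifier. Within a fraction each library is a separate animal, so p-values there measure the spread between animals. The main fit of all 72 libraries treats the 2 libraries of an animal as unpaired, so its p-values do not take account of the pairing. Members and lists were chosen with earlier results of these data known. The named list genes are those followed throughout and the 2 of smallest p among called genes in each list and model; Cd36, Acaa2, Hadha and Slc16a6 are given in both models. A few genes that the naming rules select are not reported here.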

Additional observations from a re-analysis of the deposited data

Results flagged for a closer look

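In groups of 4 animals, 1 animal lay far from the other 3 in 21 of 144 combinations of gene, group and fraction (Dixon's ratio above its 95% critical value). About 1 in 20 independent groups of normally spread values would pass that limit. The combinations here share animals between fractions, and some genes vary together, so the count cannot be set against that share. 8025 cachexia animal 3 accounted for 6 of them. It was highest in Pdk4 in hepatocyte (32.04 CPM, the others 2.0004 to 4.84) and whole liver nuclei (32.7, the others 3.09 to 5.04). It was also highest in Cyp4a10 (18.8 and 16.7 CPM, the others at most 1.87 and 1.73) and in Cyp4a14 (15.9 and 13.7 CPM, the others at most 1.92 and 1.73). The Ppara level of the same animal was the lowest of its group, 705 CPM in hepatocyte nuclei.

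In hepatocyte nuclei the other animals far from their group were C26 PBS animal 2 in Acadm (79.4 CPM, lowest), NC26 PBS animal 4 in Acadm (153 CPM, highest), 8025 cachexia animal 4 in Cpt1a (434 CPM, lowest) and C26 PBS animal 3 in Cpt2 (53.0 CPM, highest). Cyp4a14 was highest in C26 PBS animal 4 (0.733 CPM) and in MC38 PBS animal 1 (1.15 CPM), which was also highest in Ehhadh (52.6 CPM).

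In whole liver nuclei Ppara was highest in C26 cachexia animal 1 (942 CPM, the others 480 to 538) and in NC26 tumour animal 1 (2537 CPM). MC38 PBS animal 3 was highest in Acadm (112 CPM) and MC38 PBS animal 2 lowest in Cpt2 (32.8 CPM). Cyp4a10 was highest in C26 PBS animal 4 (5.57 CPM) and C26 pre-cachexia animal 4 (3.93 CPM), and Cyp4a14 in 8025 PBS animal 4 (8.05 CPM). MC38 tumour animal 4 was lowest in Pdk4 (1.65 CPM).

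The effect of 8025 cachexia on Pdk4 in whole liver nuclei differed from that of the MC38 tumour by log2 2.41 by the test of the difference (adjusted p = 0.0227, edgeR), and by 0.89 without 8025 cachexia animal 3 (adjusted p = 0.211).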

How the results depend on the processing

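No called member changed direction under any alternative run. In hepatocyte nuclei, the members called of 8 in 8025 cachexia against PBS went from 2 to 1 with DESeq2-type size factors, with no filter, without the 5 genes of rRNA-like reads and with only the libraries compared. C26 cachexia against pre-cachexia went from 2 to 1 with those size factors and with no filter, and C26 cachexia against PBS from 2 to 4 with only the libraries compared. For the 8025 effect against the MC38 effect, DESeq2 called 1 in hepatocyte nuclei in place of 0, and 0 were called in whole liver nuclei in place of 1 with only the libraries compared. Other calls of members against PBS changed too. In whole liver nuclei with only the libraries compared, Ehhadh (adjusted p = 0.023, edgeR) and Cyp4a10 (0.0346) passed in C26 cachexia. Ehhadh passed that way in 8025 cachexia (0.0465). Pdk4 was lost in C26 whole liver nuclei with no filter (0.0524), and DESeq2 called Ppara in C26 hepatocyte nuclei (0.0451). The cause of these changes was not tested. Leaving out 1 animal at a time gave 1 to 3 members in C26 cachexia against PBS in hepatocyte and 0 to 4 in whole liver nuclei, 1 to 2 and 2 to 3 in 8025 cachexia, 0 to 2 and 1 to 2 in cachexia against pre-cachexia, 0 to 1 in each fraction for 8025 against MC38, 0 to 2 for C26 against 8025 in whole liver nuclei, 1 to 4 and 3 to 5 for strain, and 3 to 5 for the fractions. All 4 C26 whole liver calls were lost without C26 PBS animal 3.

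With the replicate number as a block, the members called were again 2 in C26 and 2 in 8025 cachexia against PBS in hepatocyte nuclei, and strain in whole liver nuclei went from 4 to 5. Same-numbered animals of different groups did not deviate together throughout (correlations -0.266 to 0.395), so the number is not taken as a pairing. The median was highest in C26 hepatocyte libraries, at 0.11 against 0.012 for animals of other numbers. There 6 of 12 pairs were over 0.1. With the animal as a replicate block between fractions, 5 members were called in place of 4. Depth limits Pdk4, Cyp4a10 and Cyp4a14, which had as few as 5, 2 and 0 counts in a hepatocyte library.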
